A study of Mus musculus with 8 samples.

Results

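Chemokines are small secreted proteins, and chemokine receptors are the G protein-coupled receptors through which cells sense them. The genes described here are every deposited mouse symbol of the Ccl, Cxcl, Cx3cl, Xcl, Ccr, Cxcr, Cx3cr, Xcr and Ackr series, which are 60 of the 38926 symbols counted. They comprise 39 ligands, 18 signalling receptors and 3 atypical receptors. Each was taken by its symbol, but the set was chosen with earlier results of these data known. Bladder RNA was sequenced from 4 libraries of mice with nerve-sparing partial bladder outlet obstruction (NeMO) and 4 libraries of sham-operated mice (Sham). Strain, sex, age and time after surgery were not used here, since no source states them. No source states either that the libraries are of separate mice, so every p-value below refers to the spread among these 8 libraries, which may be technical. Library totals were 29451800 to 36375313 counts in NeMO and 27212499 to 33459048 in Sham, and no library was set aside. Labels of bladder tissue were checked on marker genes: the 8 smooth muscle markers summed to 28590 to 52630 CPM (counts divided by the TMM-scaled library total and brought to one common total) and the 12 urothelial markers tested to 6977 to 10990 CPM in every library.

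Chemokines draw leukocytes along gradients into tissue. Homeostatic ligands such as Cxcl12 are made constantly by stromal cells, whereas inflammatory ligands are switched on by cytokines. Interferon gamma induces Cxcl9, Cxcl10 and Cxcl11, and these then act on the receptor Cxcr3 of T and natural killer (NK) cells. Atypical receptors bind chemokines without classical G protein signalling and clear them. In the bladder, stroma, urothelium, resident macrophages and arriving leukocytes can all contribute such transcripts, and in RNA of whole tissue fewer cells of a type and less RNA per cell cannot be told apart.

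The results turned on Cxcl12, the ligand with the most reads, which was lower in every NeMO library than in any Sham library, and on ligands read mainly in 1 Sham library, of which Cxcl9 and Cxcl10 had the most counts. Their promoters are shown because the factors known to induce Cxcl9 and Cxcl10 bind there, and because the 3 windows differ in the letters they hold. Each is the 250 bases before the annotated start on the gene's own strand, from RefSeq on GRCm38.p6: chr5:92328080-92328329 on the minus strand for Cxcl9, chr5:92348890-92349139 on the minus strand for Cxcl10 and chr6:117168285-117168534 on the plus strand for Cxcl12. Capitals mark matches to an interferon-stimulated response element (ISRE: GAAA, any 2 bases, GAAA) or to a kB element of NF-kB (GGG, any 2 or 3 bases, TTCC; the 2 spacings can overlap), searched on both strands.
Cxcl9: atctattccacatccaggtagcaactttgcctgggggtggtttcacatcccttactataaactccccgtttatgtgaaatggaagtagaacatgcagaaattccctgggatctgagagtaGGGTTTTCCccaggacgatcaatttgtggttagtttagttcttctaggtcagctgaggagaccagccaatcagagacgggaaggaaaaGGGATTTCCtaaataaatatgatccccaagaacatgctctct
Cxcl10: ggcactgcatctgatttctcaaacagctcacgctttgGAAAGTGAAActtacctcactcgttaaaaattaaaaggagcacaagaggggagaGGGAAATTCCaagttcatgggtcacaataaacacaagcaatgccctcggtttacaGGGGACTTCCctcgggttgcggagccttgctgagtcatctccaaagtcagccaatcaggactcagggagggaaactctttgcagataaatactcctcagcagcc
Cxcl12: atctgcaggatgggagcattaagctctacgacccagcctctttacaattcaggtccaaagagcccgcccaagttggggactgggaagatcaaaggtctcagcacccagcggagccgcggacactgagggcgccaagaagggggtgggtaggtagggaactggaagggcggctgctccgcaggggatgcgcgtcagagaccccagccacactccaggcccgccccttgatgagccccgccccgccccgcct
The Cxcl10 window held an ISRE 213 to 204 bases before the start and kB elements at 159 to 150 and 104 to 95 bases before it. Cxcl9 held kB elements at 130 to 122 and 42 to 34 bases before the start and no ISRE spelled this way, and Cxcl12 held neither. Another motif, the gamma-activated site (GAS: TTC, any 3 bases, GAA), had no match in any of the 3 windows. Over all 32851 RefSeq promoters of this length, 2.98% held an ISRE, 8.26% a kB element and 7.02% a GAS. Of the 44 members with a promoter in that table, 3 held an ISRE, 12 a kB element and 3 a GAS. A match is a description of the letters and shows no binding.

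No chemokine or receptor gene passed the test between NeMO and Sham. Counts were found for 55 of the 60 genes and 39 passed the filter on low counts, made up of 24 ligands, 12 signalling receptors and 3 atypical receptors. With edgeR's quasi-likelihood test at an adjusted p of 0.05, 0 of the 39 were called, against 12 of 16370 genes or 0.0733% of all genes tested. With 1 library left out the members' count remained 0. That over all genes ran from 0 (without NeMO replicate 4 or Sham replicate 4) to 643 (without NeMO replicate 1). Sham replicate 4 is the only Sham library of batch 2 (the batches are described below). Without it the group difference is estimated from batch 1 alone. At an unadjusted p of 0.05, 2 members differed, the ligands Cxcl12 and Ccl11, both lower in NeMO. Over all genes 18.5% differed at that level and 9.14% were lower. With 1 library left out, 2 to 9 members did so, with 9 when NeMO replicate 1 was the one left out. DESeq2 called 1 member, Cxcl12, where it called 5.82% of all genes. It gave no adjusted p for Cxcl10, Xcl1, Ccl4, Cxcl1, Ccr4 and Cxcr2, which count as not called. The groups did not overlap for 2 members, Cxcl12 and Ccl24, both lower in NeMO, against 8.19% of all genes in either direction and 3.81% lower. Each of these shares of the 39 members lay below that over all genes, except that 5.13% of members and 3.81% of all genes were lower without overlap.

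Ligand estimates were mostly negative and receptor estimates lay on both sides of 0, a difference between the sets that was not tested. Of the 24 ligands tested, 5 had a positive log2 fold change (NeMO minus Sham) and 19 a negative one, with a median of -0.53 and a range of -2.69 to 0.50. Of the 15 receptors tested, atypical ones included, 8 were positive and 7 negative, with a median of 0.01 and a range of -0.66 to 1.10. Over all genes 48.3% were positive and the median was -0.01. Summed over all ligands, the level was 557 ± 50.3 CPM in NeMO and 734 ± 131 CPM in Sham (SD, n = 4 each). Cxcl12 was the largest single part of that sum. The ligand median rested partly on Sham replicate 1: without that library it was -0.25, with 15 of 24 ligands lower. It was -0.56 within batch 1 and -0.37 within batch 2. The batches are the 2 sets marked in the submitted file names. The receptor median was 0.17 within batch 1 and -0.46 within batch 2, and -0.18 without NeMO replicate 3.

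**Figure D1:**
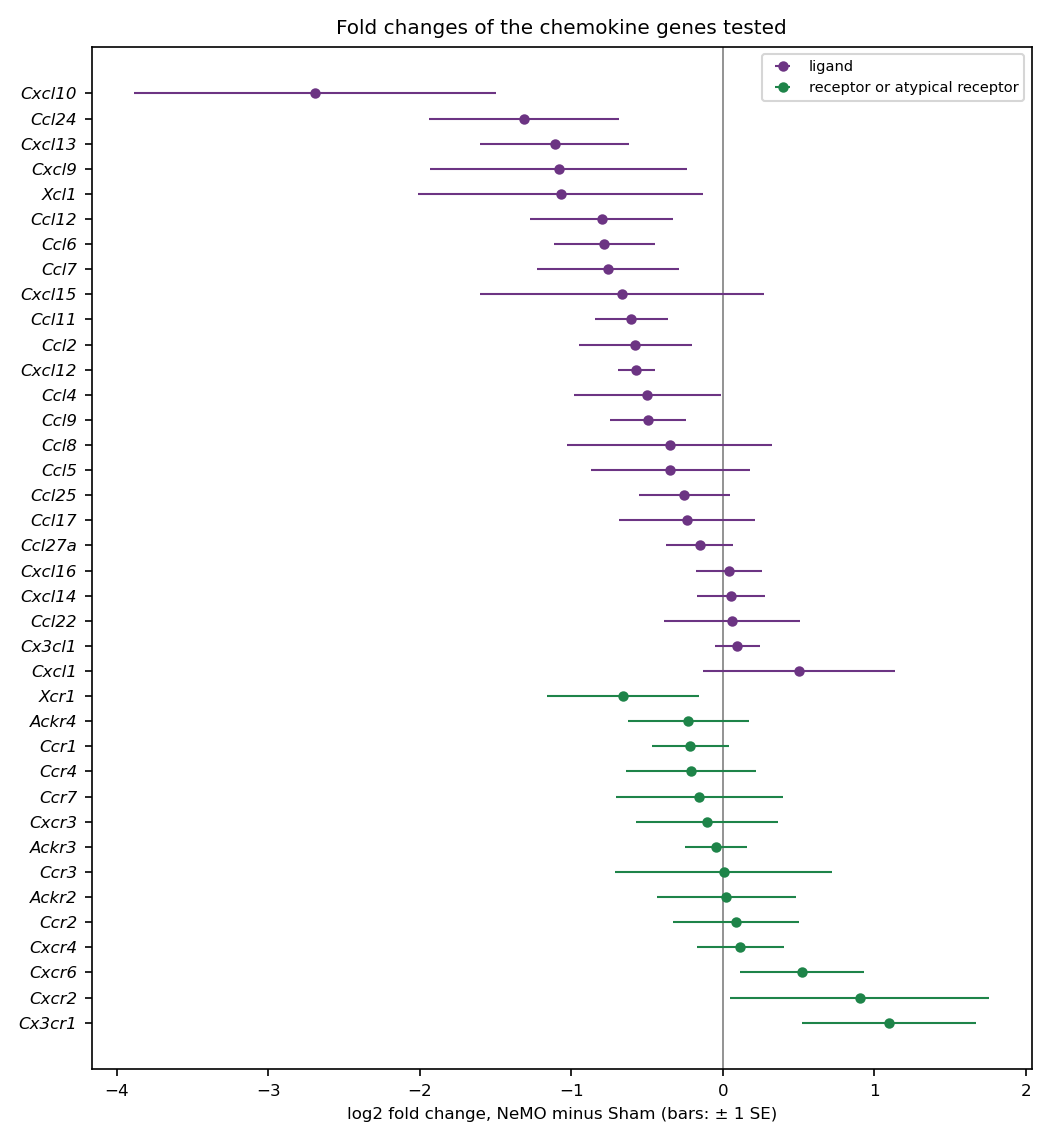
Log2 fold change (NeMO minus Sham) of 38 of the 39 chemokine ligands and receptors tested, by edgeR with batch and group as terms; points are estimates and bars are standard errors. Most of the 24 ligands lie below 0, while the 14 receptors plotted lie on both sides of it.

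Cxcl12, the stromal ligand of Cxcr4 that is also bound by Ackr3, had the most reads of the ligands. It lies on chromosome 6 at 117168535 to 117181367 (mm10, plus strand). Its level was 266, 272, 274 and 244 CPM in NeMO replicates 1 to 4 and 442.5, 328, 474 and 360.3 CPM in Sham replicates 1 to 4. Every NeMO library was below every Sham library, and the NeMO libraries lay close together. Means were 264 ± 13.6 CPM in NeMO and 401 ± 68.4 CPM in Sham (SD, n = 4 each). The log2 fold change was -0.57 with an SE of 0.12, an edgeR unadjusted p of 0.00093 and an adjusted p of 0.088, which missed the threshold. DESeq2 gave -0.57 with an adjusted p of 0.00126, and edgeR without the filter on low counts gave -0.56 with an adjusted p of 0.0343. The estimate was -0.62 within batch 1 and -0.48 within batch 2, which has 1 Sham library. Leaving out each library in turn gave -0.65 to -0.50.

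Some other measures of the tissue moved beside Cxcl12. All 9 adipocyte markers had negative log2 fold changes (median -1.18), although none passed the edgeR adjusted threshold, 5 had an unadjusted p below 0.05 and DESeq2 called 2. They summed to 549.8 to 1444 CPM in NeMO and 1224 to 2984 CPM in Sham. Markers of some other tissue parts were mostly lower too, with none called by edgeR. For urothelium 10 of 12 were lower (median -0.29, 6 at an unadjusted edgeR p below 0.05, 4 called by DESeq2). For nerve and Schwann cells 7 of 7 were lower (median -0.58, 3 and 1 by the same counts). For red blood cells 6 of 6 were lower (median -0.62, 1 and 0). Over all genes 18.5% had an unadjusted edgeR p below 0.05 and DESeq2 called 5.82%. Vessel markers were mostly higher: 7 of 10 for blood endothelium (median 0.09) and 5 of 6 for lymphatic endothelium (median 0.18). In the lymphatic list 1 higher and 1 lower marker had an unadjusted edgeR p below 0.05, and DESeq2 called 1. Smooth muscle had 3 positive and 5 negative values (median -0.03). The 9 fibroblast markers had 5 positive and 4 negative values and a median of 0.01. Of these, 2 were lower at an unadjusted edgeR p below 0.05, and DESeq2 called 1. The part of these cells in the Cxcl12 difference was not tested. Its receptors did not pass either. Cxcr4, a receptor of leukocytes and endothelium, had a log2 fold change of 0.11 with an SE of 0.29 and an edgeR adjusted p of 0.866. Ackr3, which scavenges Cxcl12, had -0.04 with an SE of 0.20 and an edgeR adjusted p of 0.932.

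**Figure D2:**
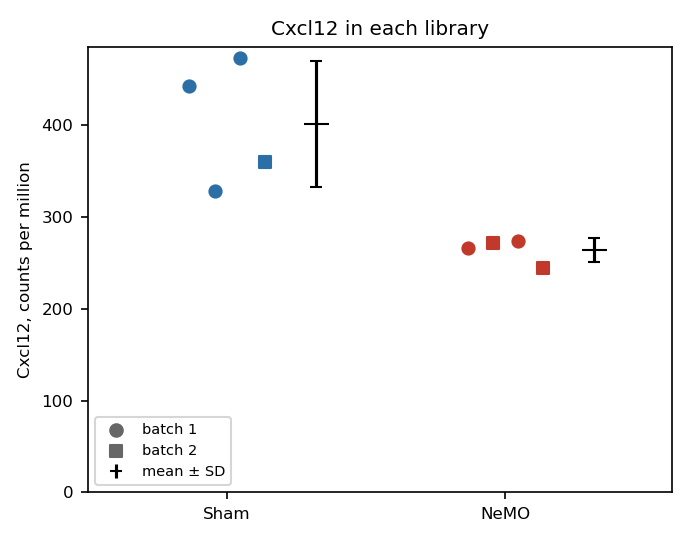
Level of Cxcl12 in CPM (vertical axis, from 0) in each library, Sham at the left and NeMO at the right; circles are batch 1, squares batch 2, and crosses with bars are group means ± SD. The 4 NeMO values of Cxcl12 (244 to 274 CPM) all lie below the 4 Sham values (328 to 474 CPM).

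The other abundant ligands overlapped between the groups. Per kilobase of exon, which allows comparison between genes, Cxcl14 had the highest level at 77.4 CPM per kb. It was ahead of Cxcl12 at 40.7, Ccl8 at 26.3, Ccl6 at 17.3 and Cx3cl1 at 8.80. The Ccl8 level rested partly on Sham replicate 1, which held 40.6% of its summed CPM. Cxcl14, an epithelial and stromal ligand made in healthy tissue, was at 87.4, 146.5, 162.5 and 204 CPM in NeMO and 140.2, 96.2, 134 and 161 CPM in Sham. The lowest and the highest library of Cxcl14 were both NeMO. Its log2 fold change was 0.06 with an SE of 0.23 (edgeR adjusted p = 0.922). Cx3cl1, the membrane-bound ligand of Cx3cr1, was at 33.6, 32.1, 40.6 and 37.3 CPM in NeMO and 36.8, 34.3, 24.0 and 38.1 CPM in Sham. Sham replicate 3 was lowest and the others lay close together (log2 fold change 0.10, SE 0.15, edgeR adjusted p = 0.773). Cxcl16, the membrane-bound ligand of Cxcr6 on T cells, was at 18.8, 21.96, 37.4 and 25.3 CPM in NeMO and 33.6, 25.03, 23.3 and 22.9 CPM in Sham. Its highest values were in NeMO replicate 3 and Sham replicate 1 (log2 fold change 0.04, SE 0.22, edgeR adjusted p = 0.941).

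Ccl6 and Ccl9 are rodent CC ligands that macrophages and other myeloid cells make and that signal through Ccr1. Ccl6 was at 29.6, 10.5, 21.4 and 27.5 CPM in NeMO and 53.6, 28.8, 38.5 and 38.1 CPM in Sham. The groups overlapped only in that NeMO replicate 1 lay above Sham replicate 2. The log2 fold change was -0.78 with an SE of 0.33 and an edgeR adjusted p of 0.274. Ccl9 was at 24.85, 7.62, 13.3 and 13.3 CPM in NeMO and 25.6, 20.1, 26.6 and 18.1 CPM in Sham, with NeMO replicate 1 among the Sham values (its log2 fold change was -0.49, SE 0.25, with an edgeR adjusted p of 0.332). Leaving out NeMO replicate 1 gave -0.82 for Ccl9 and leaving out NeMO replicate 3 gave -0.32, with edgeR adjusted p-values of 0.0678 and 0.601. NeMO replicate 2 was lowest of the 8 libraries for both. It was the lowest library for 17 of the 39 members tested, against 13.1% of all genes, and its 14 macrophage markers summed to 427.2 CPM, against 768.5 to 1162 CPM in the other 7 libraries. Those markers had 2 positive and 12 negative log2 fold changes with a median of -0.24. Their part in the Ccl6 and Ccl9 values was not tested.

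Ligands of Ccr3, the receptor through which eosinophils are drawn, had negative estimates. Ccl11 (eotaxin) was at 6.25, 4.57, 8.535 and 10.3 CPM in NeMO and 9.985, 11.25, 12.2 and 11.5 CPM in Sham. Only NeMO replicate 4 reached the Sham range. Means were 7.41 ± 2.52 and 11.2 ± 0.93 CPM (SD, n = 4 each), with a log2 fold change of -0.60, an SE of 0.24, an edgeR unadjusted p of 0.0333 and an adjusted p of 0.232. Ccl24 (eotaxin-2) was at 3.61, 1.72, 0.233 and 1.605 CPM in NeMO and 4.33, 3.77, 5.90 and 4.33 CPM in Sham. The groups did not overlap, and NeMO replicate 3 was far below the rest. Its log2 fold change was -1.31 with an SE of 0.63 and an edgeR adjusted p of 0.311, and the estimate rested on single NeMO libraries: leaving out NeMO replicate 3 gave -0.82 and leaving out NeMO replicate 1 gave -2.59 (edgeR adjusted p = 0.282 and 0.0597). Ccr3 itself was low, at 0.143 to 1.37 CPM, and had a log2 fold change of 0.01 with an SE of 0.72.

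Ligands of Ccr2, the receptor that recruits monocytes, had mean levels below its own per kilobase of exon. Over all libraries Ccl12 was at 4.37, Ccl7 at 3.25, Ccl2 at 2.14 and Ccr2 at 4.70 CPM per kb. Ccl12 lay above Ccr2 in 4 of the 8 libraries, Ccl7 in 3 and Ccl2 in 0. Sham replicate 1 raised the Ccl12 mean, at 13.2 CPM per kb there against 1.11 to 5.35 elsewhere. Ccl2, the main monocyte attractant, was at 3.81, 0.960, 1.83 and 1.13 CPM in NeMO and 3.68, 2.39, 2.45 and 3.23 CPM in Sham. Ccl7 was at 4.13, 0.795, 2.30 and 0.637 CPM in NeMO and 4.80, 2.56, 2.24 and 3.34 CPM in Sham. In both, NeMO replicates 2 and 4 lay below all Sham libraries and NeMO replicate 1 lay among the highest. Log2 fold changes were -0.58 (SE 0.38) for Ccl2, -0.76 (SE 0.47) for Ccl7 and -0.80 (SE 0.47) for Ccl12, and the edgeR adjusted p-values were 0.445, 0.426 and 0.401.

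**Figure D3:**
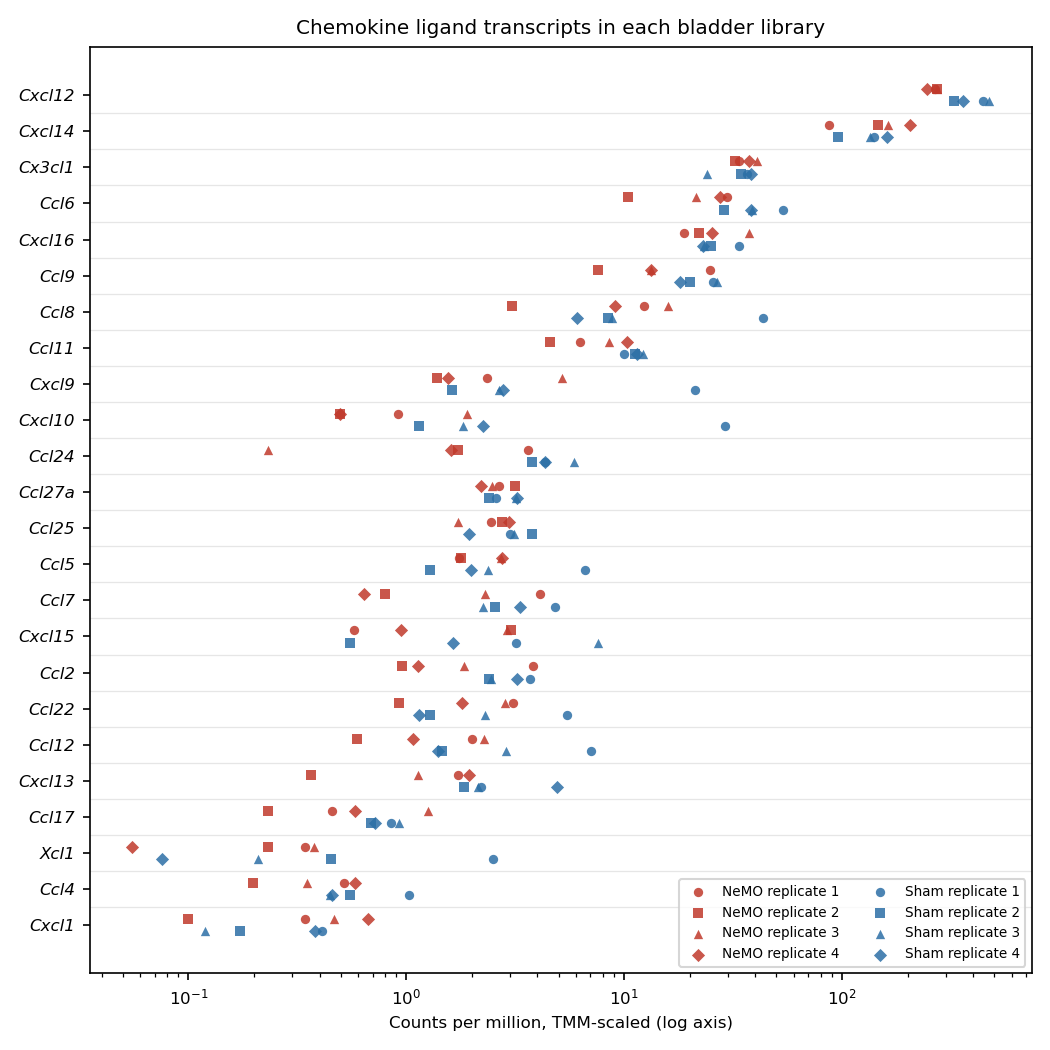
Levels of the tested ligands in each library, in CPM on a log axis, with NeMO in red, Sham in blue and the replicate number by shape. Cxcl9, Cxcl10, Xcl1 and Ccl8 show 1 Sham library (replicate 1) far above the rest, and Cxcl12 shows no overlap between the groups.

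Some members were read mostly in a single library. A gene was counted as carried by 1 library where it had at least 30 counts in all and that library held at least 50% of its summed CPM. This held for 4 members: Cxcl9, Cxcl10 and Xcl1 in Sham replicate 1 and Cxcl5 in NeMO replicate 3. Of the 39 members tested 3 were carried, against 0.281% of all genes tested, and Cxcl5 was not tested.

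Cxcl10 and Cxcl9 lie close together on chromosome 5, at 92346638 to 92348889 and 92321347 to 92328079 (mm10, both on the minus strand). Cxcl10 was at 0.917, 0.497, 1.89 and 0.498 CPM in NeMO and 29.1, 1.14, 1.83 and 2.24 CPM in Sham. Sham replicate 1 was 13 times the next library and held 988 of 1271 counts, a share of 77.7% (exact Clopper-Pearson 95% interval 75.3% to 80%, which covers counting error only, as do the other intervals here). The log2 fold change of Cxcl10 was -2.69 with an SE of 1.19 and an edgeR adjusted p of 0.291. Without Sham replicate 1 it was -0.92 with an SE of 0.50 and an edgeR adjusted p of 0.383. Cxcl9 was at 2.35, 1.39, 5.185 and 1.55 CPM in NeMO and 21.1, 1.63, 2.66 and 2.77 CPM in Sham. The second highest library for Cxcl9 was NeMO replicate 3, and Sham replicate 1 held 715 of 1282 counts, or 55.8% (53.0% to 58.5%). Its log2 fold change was -1.08 with an SE of 0.85 (edgeR adjusted p = 0.541), and 0.11 without Sham replicate 1.

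Xcl1, a ligand made by NK cells and activated T cells, had 12, 7, 13 and 2 counts in NeMO and 85, 13, 7 and 2 counts in Sham. Sham replicate 1 held 60.3% of them (51.7% to 68.4%), and the log2 fold change of -1.07 (SE 0.94, edgeR adjusted p = 0.582) became 0.31 without that library. Xcr1, its receptor on cross-presenting dendritic cells, was also highest in Sham replicate 1, at 4.80 CPM, with the other 7 libraries at 0.917 to 2.36 CPM. Ccl8, a CC ligand made by resident macrophages, was at 12.35, 3.05, 15.9 and 9.05 CPM in NeMO and 43.6, 8.45, 8.80 and 6.08 CPM in Sham. Sham replicate 1 held 40.6% of its summed CPM, short of the 50% used here. Its log2 fold change was -0.35 (SE 0.68, edgeR adjusted p = 0.828), and 0.43 without Sham replicate 1, so the sign turned on that library.

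Sham replicate 1 was the highest library for 13 of the 39 members tested, 10 ligands and 3 receptors, against 11.1% of all genes. Cxcl9, Cxcl10, Cxcl11 and Cxcr3 together came to 53.4 CPM there and 3.21 to 10.4 CPM in the other 7 libraries. Cxcl11, which GENCODE M21 annotates as a polymorphic pseudogene rather than protein-coding, had 20 counts there and 2 to 9 in the others. All 22 interferon response genes tested were also highest in that library, where they summed to 3342 CPM against 528.8 to 760.2 CPM elsewhere. None of the 22 passed the edgeR threshold between the groups, and 2 (Isg15 and Mx1) had an unadjusted edgeR p below 0.05. DESeq2 called 0 and gave no adjusted p for Iigp1 and Igtp. Ifng, the gene of interferon gamma, was at 0.766 CPM in Sham replicate 1 and 0 to 0.298 CPM in the others, and it did not pass the filter. All 8 NK cell markers tested were highest there too, summing to 36.05 CPM against 4.93 to 10.4 CPM. So were 10 of 14 macrophage markers, which summed to 1162 CPM there and 427.2 to 981.7 CPM elsewhere. Of 5 monocyte markers, 4 were highest there, Ccr2 among them. The monocyte sum was 223.3 CPM in Sham replicate 1 and 86.6 to 199.7 CPM in the others. Dendritic cell markers summed to 1005 CPM there, 662.7 CPM in NeMO replicate 3 and 217.4 to 534.1 CPM in the others. Of the 11 markers only 5 were highest in Sham replicate 1, and 63.4% of the sum over all libraries was Cd74. Without Cd74 they summed to 356.4 CPM in Sham replicate 1, 235.1 CPM in NeMO replicate 3 and 83.55 to 191.4 CPM in the others. The part of interferon or of these cells in the high ligands was not tested.

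**Figure D4:**
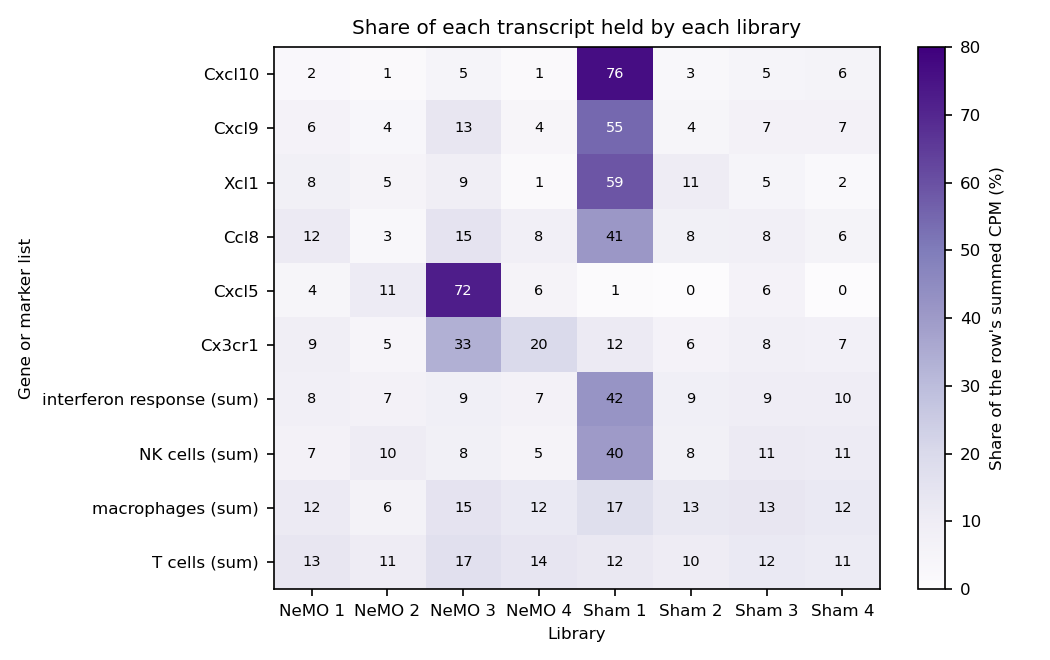
Share of each row's CPM, summed over the 8 libraries, that came from each library (shade and printed number, in percent), for the 4 carried genes, Ccl8, Cx3cr1 and the summed markers of 4 lists. Sham replicate 1 held 76.3% of Cxcl10, 54.6% of Cxcl9 and 58.9% of Xcl1, next to 40.6% of Ccl8, and NeMO replicate 3 held 72.3% of Cxcl5.

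Cxcl5, a neutrophil attractant that acts on Cxcr2 and that urothelium can make, had 6, 13, 98 and 8 counts in NeMO and 1, 0, 8 and 0 in Sham. NeMO replicate 3 held 73.1% of these counts (64.8% to 80.4%), and the gene did not pass the filter, so it has no fold change here. The other Cxcr2 ligands were scarce: Cxcl1 reached at most 0.664 CPM in any library and had a log2 fold change of 0.50 with an SE of 0.63. Cxcr2, the neutrophil receptor, had 0.90 with an SE of 0.85 and an edgeR adjusted p of 0.607. Of 13 neutrophil markers 5 were tested, Cxcr2 among them, 4 with positive estimates (median 0.63), and those 4 (Csf3r, Retnlg, Mpo and Cxcr2) were highest in NeMO replicate 3. Csf3r, a receptor of neutrophil growth factor, was at 6.525 CPM there and 1.71 to 4.12 CPM in the others. The fifth, Mmp9, which other cells also make, had -1.86 with an SE of 0.43 and an edgeR adjusted p of 0.118. Markers that did not pass the filter peaked in other libraries. S100a8 had 133 counts in NeMO replicate 2 and 6 to 16 in the others. S100a9 (118 counts), Ngp (29), Ltf (27) and Camp (9) were also highest in NeMO replicate 2. Mmp8, like Mmp9, was highest in Sham replicate 4, and Ly6g and Elane had no count in any library. The part of neutrophils in the Cxcl5 reads was not tested.

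All 12 signalling receptors tested overlapped between the groups. Ccr2 was at 24.2, 19.9, 49.3 and 30.03 CPM in NeMO and 57.2, 17.4, 35.4 and 21 CPM in Sham. It was highest in Sham replicate 1 and next highest in NeMO replicate 3. Its log2 fold change was 0.09 with an SE of 0.42 and an edgeR adjusted p of 0.935.

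Cx3cr1, the fractalkine receptor of monocytes and resident macrophages, had the most positive estimate of all members tested. It was at 7.48, 3.91, 28.2 and 16.6 CPM in NeMO and 9.69, 5.09, 7.03 and 6.19 CPM in Sham. NeMO replicates 3 and 4 lay above every Sham library, and NeMO replicate 2 lay below every one. Means were 14.1 ± 10.8 CPM and 7.001 ± 1.96 CPM (SD, n = 4 each), with a log2 fold change of 1.10, an SE of 0.57 and an edgeR adjusted p of 0.36. Without NeMO replicate 3 it was 0.37. Its ligand Cx3cl1 was at 40.6 CPM in that library and 24.0 to 38.1 CPM in the others.

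NeMO replicate 3 was the highest library for 11 of the 39 members tested, against 15.6% of all genes, and 8 of the 11 were receptors. Cxcr4 was at 3.955, 4.37, 7.63 and 4.43 CPM in NeMO and 4.71, 3.705, 3.50 and 6.80 CPM in Sham, with NeMO replicate 3 and Sham replicate 4 above the rest. Cxcr6, Cxcr3 and Ccr7, receptors of T cells and, for Ccr7, migrating dendritic cells, were at 6.47, 3.175 and 2.45 CPM in NeMO replicate 3, each the highest of the 8 libraries. Their log2 fold changes were 0.52, -0.10 and -0.15, and none passed. T cell markers summed to 174.4 CPM in NeMO replicate 3, where 9 were highest, but 84.7% of the sum over all libraries was Thy1, which stromal and nerve cells also express. Without Thy1 they summed to 36.7 CPM in NeMO replicate 3, 31.25 CPM in Sham replicate 1 and 10.7 to 19.5 CPM in the others. The part of T cells in these receptor levels was not tested.

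Among receptors Ackr3 had the highest level per kilobase of exon, 17.0 CPM per kb, ahead of Ccr2 at 4.70. Ackr3 was at 77.3, 56.1, 43.6 and 45.2 CPM in NeMO and 50.5, 72.3, 51.5 and 59.2 CPM in Sham, with overlapping groups. Ackr2, which clears inflammatory CC ligands in lymphatic vessels, was at 9.97, 2.95, 1.89 and 3.40 CPM in NeMO and 4.74, 5.99, 3.83 and 4.41 CPM in Sham. NeMO replicates 2, 3 and 4 lay below every Sham library and NeMO replicate 1 lay above them all. The log2 fold change of Ackr2 was 0.02 (SE 0.46, edgeR adjusted p = 0.987), and -0.93 without NeMO replicate 1. Ackr4, which binds Ccl19, Ccl21 and Ccl25, had -0.23 with an SE of 0.40.

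**Figure D5:**
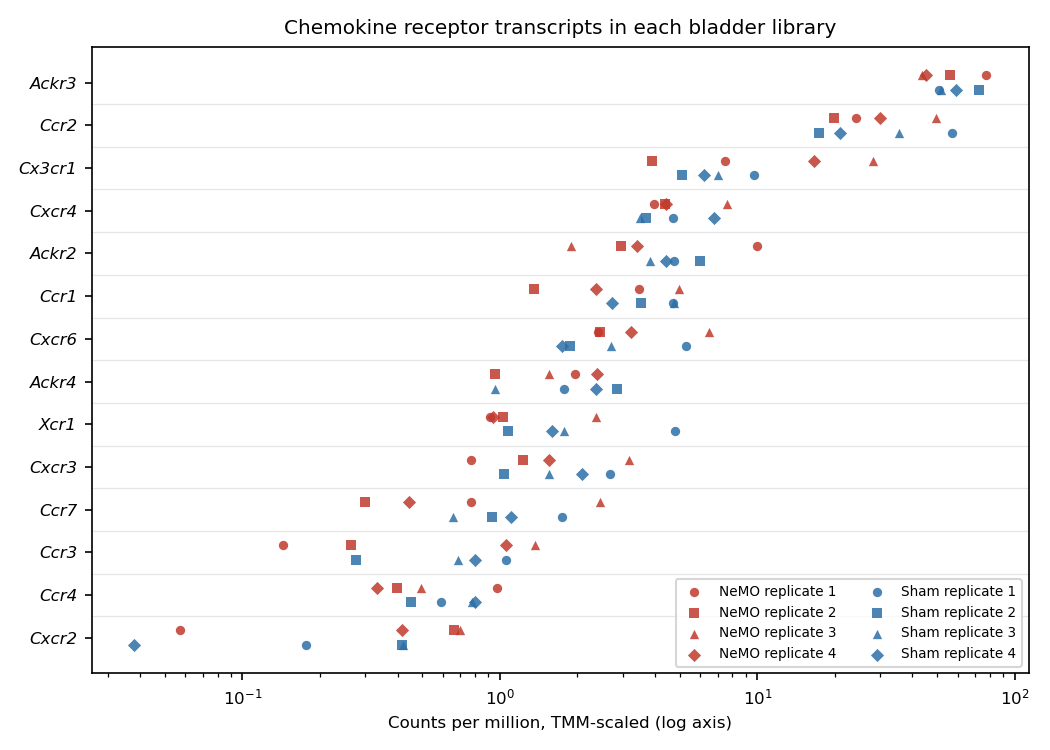
Levels of 14 of the 15 tested signalling and atypical receptors in each library, in CPM on a log axis, with NeMO in red, Sham in blue and the replicate number by shape. The groups overlap for every receptor plotted, and NeMO replicate 3 (28.2 CPM) is the highest Cx3cr1 value.

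The remaining members were low. Of the 60 genes, 13 had fewer than 30 counts over all 8 libraries, among them Ccl19, Ccl20, Cxcl3 and Cxcl17. Ccl21a, Ccl21b, Ccl21c, Ccl27b and Cxcr1 had 0 counts in all libraries, which allows up to 0.083 to 0.114 CPM per library at 3 counts. The Ccl21 and Ccl27 genes have near-identical copies in the mouse genome, so their reads may have been dropped or assigned elsewhere, and these zeros are uncertain. Ccl27a, an epithelial ligand, was at 2.21 to 3.23 CPM in every library, and its counts are uncertain for the same reason. Exons of 7 members tested (Cxcl10, Cxcl16, Xcl1, Cx3cr1, Ccl25, Ccl27a and Ackr4) overlap in part with exons of a gene on the opposite strand in GENCODE M21, such as Art3 for Cxcl10, and reads there cannot be told apart without the strand setting.

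Genes of chemokine signalling inside the cell, such as G protein subunits, arrestins and kinases, numbered 36 tested, of which 20 had positive and 16 negative estimates (median 0.02). None passed the edgeR threshold, 2 higher and 1 lower had an unadjusted p below 0.05, and DESeq2 called 1. Jak2, a kinase of cytokine receptors, had the smallest p, with means of 118 ± 12.6 CPM in NeMO and 99.6 ± 10.8 CPM in Sham (SD, n = 4 each), a log2 fold change of 0.31, an SE of 0.08 and an edgeR adjusted p of 0.114. Pik3r5, a regulatory subunit of the G protein-activated phosphoinositide kinase, had 0.45 with an SE of 0.19 and an edgeR adjusted p of 0.251. Among 20 inducers of inflammatory chemokines (cytokines, their receptors and NF-kB genes) 11 were positive and 9 negative, with 0 called by edgeR or DESeq2 and 3 at an unadjusted p below 0.05. Il1r1, the interleukin-1 receptor, had 0.38 with an SE of 0.14, and Nfkbia, the inhibitor of NF-kB, had -0.30 with an SE of 0.11, with edgeR adjusted p-values of 0.21 and 0.211.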

How the data were processed

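Each library's deposited table gives the authors' read counts by gene symbol, unnormalized and used unchanged. Trimmomatic, STAR, featureCounts, DESeq2 and the mm10 build are named, without versions, in the submitters' processing notes. Annotation, strand setting and handling of multiply mapped reads: not given in the sources used here, so overlapping or antisense genes cannot be separated. Per the labels' protocols the libraries were polyA, directional and single-end. Batch comes from a mark in the submitted file names: batch 1 holds NeMO replicates 1 and 3 and Sham replicates 1, 2 and 3, and batch 2 the others. Other samples of the series were not analysed here. For 1 member no value is reported here; it stays in the counts over all members.

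Genes were kept by edgeR's filterByExpr on the group (minimum count 10, minimum total 15), scaled by TMM and tested two-sided with edgeR 4.0.16's robust quasi-likelihood F-test in R 4.3.3, with batch and group as terms and Benjamini-Hochberg adjustment over 16370 genes at 0.05. Fold changes are log2, NeMO minus Sham; the SE is the fold change divided by the square root of F. CPM use TMM-scaled totals, and 1 CPM was 26.3 to 36.1 reads. Exon lengths and coordinates are from GENCODE M21 (Ccl21c unmatched); promoters are from RefSeq. DESeq2 1.42.0, other scalings and filters, the model terms, each batch and each left-out library were alternatives. Some genes got no adjusted p from DESeq2, and these count as not called throughout. The method was tested on simulated data.

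The members and gene lists were chosen with earlier results of these data known. Members named by rule passed the threshold, did not overlap or had an unadjusted p below 0.05 with a mean of at least 1 CPM, were among the 8 ligands or 6 receptors with the highest mean CPM, or were carried by 1 library. Of the signalling, inducer, interferon and outside-series lists, none of whose genes passed the threshold, the 2 of smallest p were named; marker lists are given as counts and sums. Ccl2, Ccl7, Ccl12, Ccl27a, Cxcl1, Cxcl13, Xcr1, Ccr3, Cxcr2, Cxcr3, Cxcr6, Ccr7, Ackr4, Ifng, Pf4, Darc, Thy1, Csf3r, Retnlg, Mpo, Mmp9, S100a8, Ly6g and Elane were chosen after their values were seen. So were S100a9, Ngp, Ltf, Camp, Mmp8 and Cxcl11. Within-group pairs of libraries all differed beyond sampling noise.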

Additional observations from a re-analysis of the deposited data

Results flagged for a closer look

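Among the 39 members tested, each group of 4 libraries was checked for a library far from the other 3, by the gap to its nearest neighbour over the group's range, against Dixon's critical value at the 95% level. This found 7 of 78 groups, 5 in Sham and 2 in NeMO, where chance at 1 in 20 gives 3.9. That figure assumes independent and normally distributed values, which CPM of these genes need not be. No share over all genes is given here, so whether the counts are an excess cannot be told. In Sham replicate 1, Cxcl10 was at 29.1 CPM against 1.14 to 2.24 CPM in the other Sham libraries, Cxcl9 at 21.1 CPM (21.06) against 1.63 to 2.77 CPM, Ccl8 at 43.62 CPM against 6.08 to 8.80 CPM, and Xcl1 at 2.504 CPM against 0.0760 to 0.450 CPM. In Sham replicate 4, the B cell attractant Cxcl13 was at 4.938 CPM against 1.83 to 2.21 CPM. In NeMO replicate 3, Cxcr4 was at 7.632 CPM against 3.955 to 4.43 CPM in the other NeMO libraries and Xcr1 at 2.359 CPM against 0.917 to 1.03 CPM. For Xcr1, Sham replicate 1 was higher still.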

How the results depend on the processing

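No chemokine gene was called by edgeR under 17 of its alternatives and none with any 1 library left out (0 to 0), while 1, Cxcl12, was called with no filter on low counts (log2 fold change -0.56) and 1 by DESeq2 (-0.57). Calls over all genes moved from 12 to 172 with no filter, 953 with DESeq2, 7 with no batch term, 0 in batch 1 alone and 5 in batch 2 alone, and from 0 to 643 with 1 library left out (643 without NeMO replicate 1, 54 without NeMO 2, 7 without NeMO 3, 0 without NeMO 4, 5 without Sham 1, 4 without Sham 2, 0 without Sham 4). Correlations between libraries of the same replicate number were -0.01 to 0.32, with 2 of 4 numbers best matched to their own. The highest was for number 4, whose libraries are both of batch 2. These few values cannot show whether the numbers pair the libraries. A replicate block gave 2 calls over all genes beside batch and 0 without it. The median over members stayed between -0.46 (batch 2 alone) and -0.03 (batch 1 alone). Requiring 60% of summed CPM left 2 carried genes, Cxcl5 and Cxcl10, and requiring 40% gave 6, adding Ccl8 and Ccl28.

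Of 17 named members tested, 7 kept their sign in every alternative run (Cxcl12, Ccl6, Ccl9, Ccl11, Cxcl10, Ccl24 and Cx3cr1), and 10 did not. Without the batch term Ackr2 was -0.0562, Cxcl16 -0.01996 and Ccr2 -0.08808. With the replicate block beside batch Ackr2 was -0.08236, Cxcl14 -0.01507, Cxcl16 -0.000479 and Ccr2 -0.07271, and with the block alone Ackr2 was -0.33, Cxcl16 -0.04866 and Ccr2 -0.005558. In batch 1 alone Ackr3 was 0.05734. In batch 2 alone Ackr2 was -0.46, Cx3cl1 -0.13, Ccl8 0.005821, Xcl1 0.84 and Cxcr4 -0.62. Without both Sham replicate 1 and NeMO replicate 3, an alternative chosen after seeing the data, Ackr3 was 0.05662, Cxcl14 -0.13, Cxcl16 -0.15, Ccl8 0.28, Xcl1 0.33 and Cxcr4 -0.24, and 17 of 24 ligands were lower (median -0.35). With 1 library left out the ranges were -0.33 to 0.12 for Ackr3, -0.93 to 0.38 for Ackr2, -0.19 to 0.27 for Cxcl14, -0.01649 to 0.23 for Cx3cl1, -0.26 to 0.27 for Cxcl16, -0.65 to 0.43 for Ccl8, -1.41 to 0.11 for Cxcl9, -1.54 to 0.31 for Xcl1, -0.195 to 0.39 for Ccr2 and -0.29 to 0.54 for Cxcr4. The cause was not tested. Members near 0.1 CPM rest on a few reads, and batch 2 alone has 1 Sham library, whose spread is taken from the NeMO pair beside it. Leaving out Sham replicate 4 therefore gave nearly the estimates of batch 1 alone, such as 0.54 for Cxcr4 in both.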

Other observations

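Chemokine-related genes whose symbols lie outside the series above had negative log2 fold changes in 10 of 10 tested, with a median of -0.36. None passed the edgeR adjusted threshold, 5 of the 10 had an unadjusted p below 0.05 (18.5% of all genes tested did) and DESeq2 called 3 (5.82% of all genes). Ccrl2, an atypical receptor that presents chemerin, was at 5.36, 5.50, 4.602 and 5.29 CPM in NeMO and 10.2, 7.72, 9.52 and 7.98 CPM in Sham. Every NeMO library was below every Sham library (log2 fold change -0.77, SE 0.16, edgeR adjusted p = 0.0867, DESeq2 adjusted p = 0.00106). Rarres2, the gene of chemerin itself, had means of 79.1 ± 10.7 CPM in NeMO and 105 ± 14.2 CPM in Sham (SD, n = 4 each), with a log2 fold change of -0.44, an SE of 0.12 and an edgeR adjusted p of 0.131. Pf4, the platelet ligand Cxcl4 that macrophages also make, had -0.76 with an SE of 0.26 and an edgeR adjusted p of 0.189. Darc, the older symbol of the atypical receptor Ackr1 on venules and red cells, had -0.34 with an SE of 0.28 and an edgeR adjusted p of 0.55.

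Over the 24 pathway and cell type lists, which hold 273 genes, 235 were tested. EdgeR called 0 of them, 47 had an unadjusted p below 0.05 (11 higher and 36 lower in NeMO), and DESeq2 called 26, where the shares over all genes tested were 18.5% and 5.82%. Of 7 mast cell and basophil markers tested, 6 had positive estimates, and the median of the 7 was 1.77. EdgeR gave 5 of them an unadjusted p below 0.05 and called 0, and DESeq2 called 5.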
